A study of Mus musculus with 2 samples.

Results

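Voltage-gated ion channels and transient receptor potential (TRP) channels were examined in pancreatic islets of newborn mice. The genes were taken by symbol: all probe sets whose single platform symbol begins with Kcn, Cacn, Scn and a digit, Hcn and a digit, or Trp with the letter a, c, m or v and a digit, leaving out Kcnj11 and Trpm5. This gave 109 genes of 12393, represented by 157 probe sets, and the rule that picks them uses symbols alone. 1 of them, Trpc4ap, carries a matching symbol but encodes an adaptor protein of ubiquitin ligases and not a channel subunit. Islets had been isolated with collagenase P at 2 days of age from wild-type mice (mixed strains and mixed sexes, per the label) and from mice with a knockout of PERK, whose strain and sex the label leaves out. PERK, encoded by Eif2ak3, is the endoplasmic reticulum (ER) kinase that slows translation when unfolded protein accumulates. Each genotype had 1 Affymetrix mouse 430A array, so no value has a replicate and no p-value was computed. The labels name neither the knockout allele nor any pooling of animals.

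In beta cells, glucose metabolism closes ATP-sensitive potassium channels, the membrane depolarises, voltage-gated calcium channels open, and the calcium that enters triggers insulin release. Voltage-gated and calcium-activated potassium channels then repolarise the membrane, leak potassium channels and HCN channels set its resting state, and TRP channels and sodium channels add depolarising current. Most of these channels are built from a pore-forming subunit and auxiliary subunits that change its gating or its delivery to the surface.

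Signals are linear intensities in arbitrary units, scaled to the same 2% trimmed mean on both arrays. A floor at the 40th percentile of both arrays together (39.8) stood in for detection calls. Genes past the floor on both arrays are called measured. Those past it on 1 array get a lower limit of the fold ("at least"), and those under it on both get no fold. Each gene has the value of its probe set with the highest mean signal. Probe sets differ in affinity, so a signal is compared between the arrays for 1 gene and is not read as more or less transcript than that of another gene. Brightness only served to choose probe sets and the genes named or set beside them. As the error of a log2 ratio, the SD between probe sets of the same gene was 0.26 over 2597 genes with 2 measured probe sets, with 0.28 among the 650 dimmest of them and 0.19 among the 649 brightest. Differences between animals or between preparations are not part of it. Eif2ak3 itself went from 117.7 in the wild type to 58.7 in the knockout (2.01-fold lower) on its measured probe set, and its remaining probe sets stayed under the floor. Both arrays carried bright hormone transcripts (Ins2 went from 5652 to 6163) and bright acinar enzyme transcripts (Ctrb1 went from 7076 to 7178), so the preparations held exocrine as well as islet cells.

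Most channel genes gave no signal above the floor. Of the 109 genes, 25 (22.9%) were measured, against 65.6% of all 12393 genes. A total of 69 (63.3%) were at the floor on both arrays, against 28.8% of all genes. Within those 69 the median signals were 13.2 (wild type) and 13.8 (knockout), and 24 genes were under 10 on both arrays. A further 12 genes (11%) were above the floor in the knockout only, against 3.42% of all genes, and 3 genes (2.75%) in the wild type only, against 2.17%. The bounds of these 12 ran from 1.03-fold to 1.35-fold, so their knockout signals lay close to the floor. Channel genes and all genes were not matched for signal, so 11% and 3.42% are not shares of like genes. A signal under the floor gives only an upper limit, which does not show that a channel is absent. In whole islets, fewer cells of a type and less RNA per cell cannot be told apart.

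**Figure D1:**
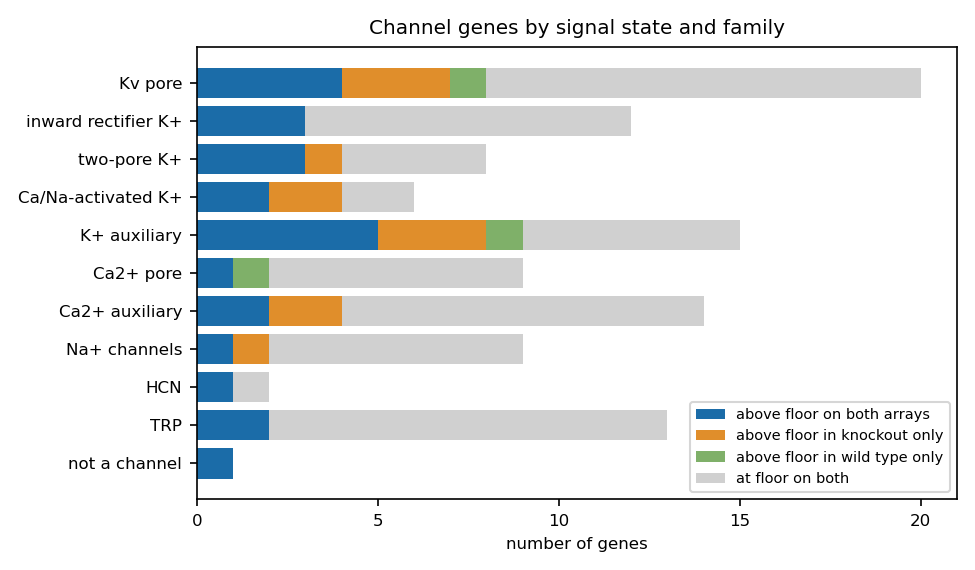
Number of channel genes (horizontal axis) in each family (vertical axis), split by whether the signal was above the floor on both arrays, in the knockout only, in the wild type only, or on neither. The grey part, at the floor on both arrays, is the larger one for Kv pore subunits (12 of 20), TRP channels (11 of 13) and calcium channel auxiliary subunits (10 of 14). It is also the larger one for inward rectifiers (9 of 12), calcium channel pore subunits (7 of 9) and sodium channel subunits (7 of 9).

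No measured channel gene was 2-fold apart between the genotypes, where 0.516% of all measured genes were higher and 0.652% lower by that much. At 1.5-fold, 2 of the 25 were higher, Scn3b and Kcnk3 (4.19% of all measured genes were), and 1 was lower, Kcnip1 (2.95% of all measured genes were). With 25 genes these counts lie near the shares of all genes. Among the 6145 measured genes no brighter than the brightest channel gene, a comparison added after the values were seen, those shares were 5.06% and 3.06%. The median log2 ratio of the 25 was 0.11, against 0.03 for all measured genes, and 18 of them (72%) were above equality, against 54.9%. A total of 14 lay within 1.2-fold of equality (56%, against 64.2% of all measured genes). The medians and these shares were not matched for brightness. The 25 had a median wild-type signal of 73.1, against 157.1 for all measured genes. With quantile normalisation the median log2 ratio of the measured channel genes was 0.04.

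**Figure D2:**
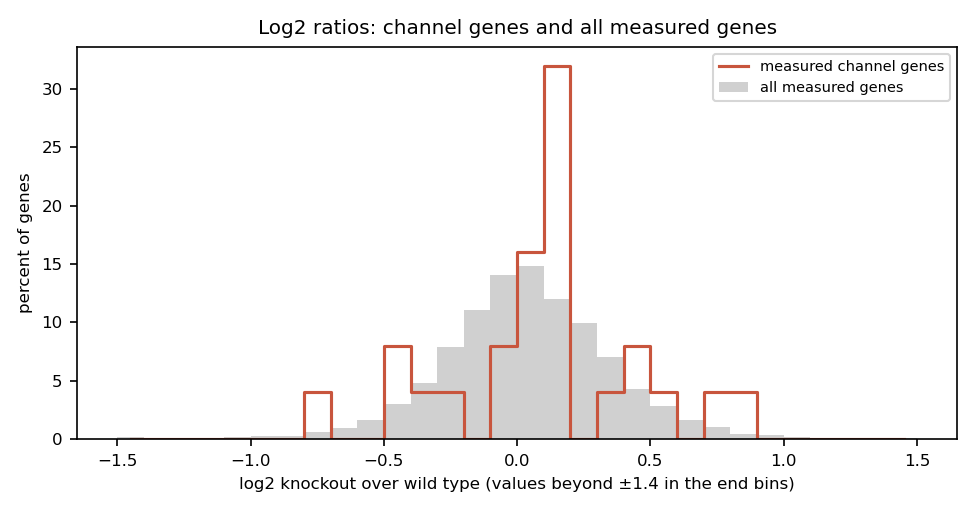
Percent of genes (vertical axis) by log2 ratio of knockout over wild type (horizontal axis, bins of 0.1) for the 8133 measured genes in grey and the 25 measured channel genes as a line. The channel genes lie between -0.79 and 0.89, inside the range of all measured genes.

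Voltage-gated potassium channels of the Kv type repolarise the beta cell after each action potential. Of 20 pore subunit genes, 4 were measured, and 3 of these were above equality. Kcnh2, which encodes the hERG channel, was nearly level at 195.8 and 206.8, a log2 ratio of 0.08 (pairs of values give the wild type first, then the knockout). Kcnq1, a slow delayed rectifier also found in heart and epithelia, was lower in the knockout at 105.8 and 75.3 (1.41-fold, log2 -0.49). The Shaker-type subunits Kcna2 (60.3 and 75.5) and Kcna5 (45.6 and 61.7) had log2 ratios of 0.32 and 0.44. The differences of Kcnq1, Kcna2 and Kcna5 were larger than the SD between probe sets, and each rests on 1 probe set. Log2 ratios of all measured genes had an SD of 0.33, which Kcna2 did not exceed.

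Kcnh3, a member of the ether-a-go-go family known from brain, was above the floor in the wild type only (62.5 against 34.5), at least 1.57-fold lower in the knockout. It was the only channel gene whose bound reached 1.5-fold. Kcna6, Kcna7 and Kcnc1 were above the floor in the knockout only, with signals of 46.0, 44.5 and 42.4 there and 32.5, 9.2 and 18.4 in the wild type. The remaining 12 Kv genes were at the floor, among them Kcna1 (19.4 and 30.6) and Kcnh1 (27.6 and 18.3). Kcnd1 (21.4 and 22.9), Kcnd2 (34.6 and 24.4) and Kcnd3 (5.0 and 13.2), the pore subunits of the fast A-type current, were among these too.

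**Figure D3:**
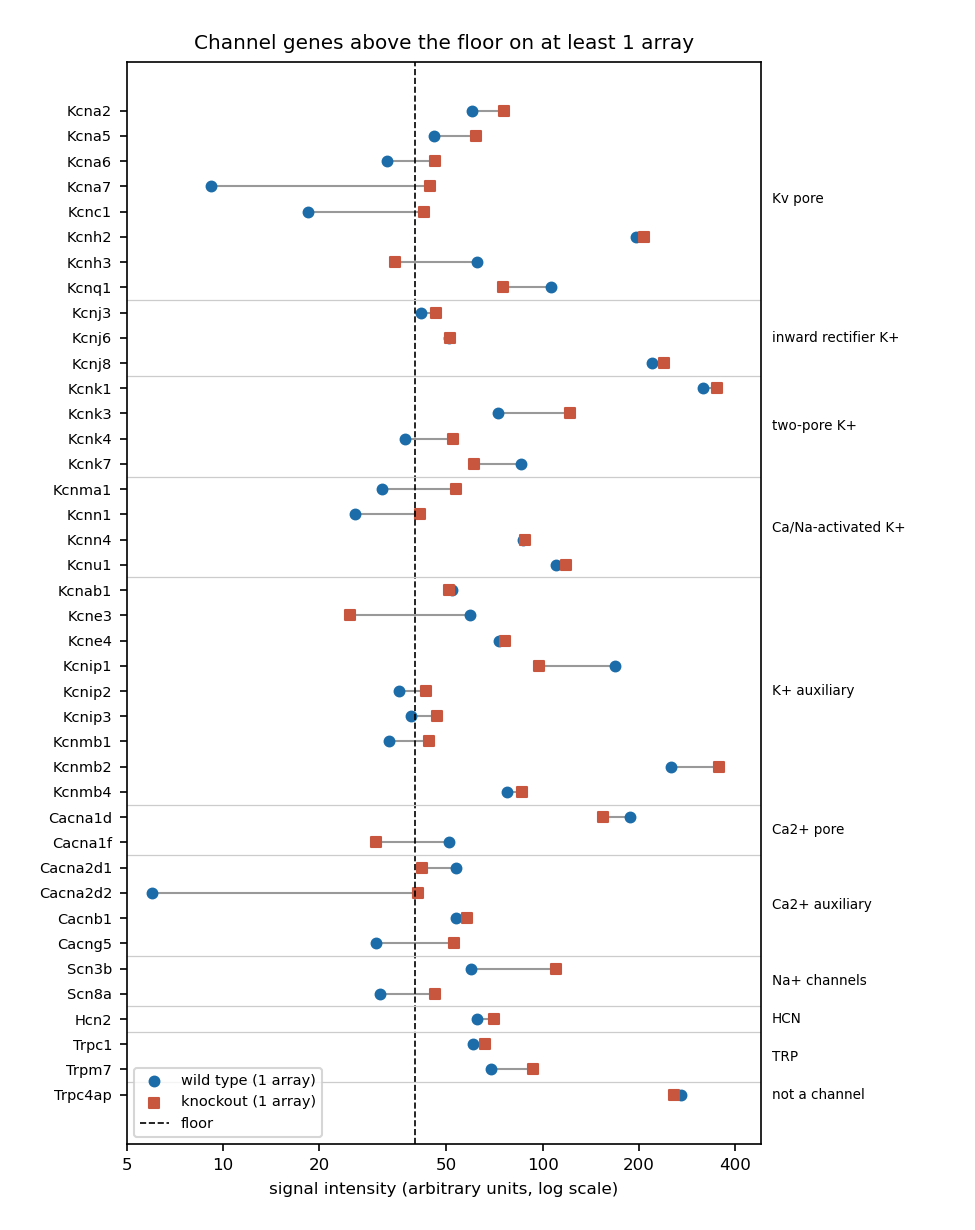
Signal in the wild type (circles) and the knockout (squares), on a log axis in arbitrary intensity units, for the 40 channel genes above the floor on at least 1 array, grouped by family. The dashed line is the floor of 39.8. Kcnip1 lies to the left in the knockout (168.9 to 97.7), Kcnk3 (72.4 to 121.9) and Scn3b (59.6 to 110.4) to the right.

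Inward rectifier potassium channels hold the membrane near the potassium potential. Of 12 genes, 3 were measured, and all 3 lay within 1.2-fold of equality. Kcnj8, the pore of the ATP-sensitive channel of vascular muscle and pericytes, had signals of 220.2 and 238.8. Abcc9, the receptor subunit with which that pore assembles, had signals of 47.8 and 51.0, and the pericyte marker Rgs5 had 1505 and 1252. Rgs5 alone does not describe these cells. Of the 15 measured mesenchymal, pericyte and smooth muscle markers, 7 were above equality and 8 below. The G protein-gated subunits Kcnj3 (41.6 and 46.5) and Kcnj6 (50.8 and 51.3) were just above the floor on both arrays. Their family member Kcnj5 was at the floor (4.7 and 7.8).

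Tandem-pore potassium channels carry background leak current. Of 8 genes, 3 were measured, and 1 was 1.5-fold apart. Kcnk3, the acid-sensitive leak channel TASK, read 72.4 in the wild type against 121.9 in the knockout, 1.68-fold higher (log2 0.75). None of its further probe sets passed the floor, so no second probe set bears on the ratio. Kcnk7 had 85.4 and 60.9 (log2 -0.49). Kcnk1, the leak channel TWIK, had 317.3 and 350.0 (log2 0.14) and, on a second measured probe set, 107.0 and 105.5 (log2 -0.02). Kcnk4, a mechanically gated leak channel, was above the floor in the knockout only (37.0 and 52.3, at least 1.31-fold higher).

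Calcium-activated potassium channels open when calcium has entered the cell. Kcnn4, the intermediate-conductance channel, was level at 86.7 and 88.2 (log2 0.02). Kcnma1, the large-conductance (BK) pore, was above the floor in the knockout only (31.4 and 53.6, at least 1.35-fold higher), as was the small-conductance Kcnn1 (25.9 and 41.4). Kcnn2 (24.7 and 29.8) and Kcnn3 (2.7 and 5.9) were at the floor. Kcnu1, a pH-sensitive channel known from sperm, had 109.7 and 118.5 on its 1 probe set (log2 0.11).

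Auxiliary subunits of potassium channels change how the pores open and inactivate. Of 15 genes, 5 were measured, with 3 above equality. Kcnip1, a calcium-binding partner of the A-type pores, read 168.9 in the wild type against 97.7 in the knockout, 1.73-fold lower (log2 -0.79). A second measured probe set of Kcnip1 had 136.0 and 115.8 (log2 -0.23), lower again but by less than the SD between probe sets. With the median of both probe sets the log2 ratio was -0.51, short of 1.5-fold. Slc2a2, a beta cell marker, also differed downward (860.4 and 464.9). Over the beta cell marker list 7 of 8 measured genes were below equality, 3 of them at least 1.5-fold lower, with the summed signal at 18835 and 16789. The part of cell composition in the Kcnip1 difference was not tested.

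Kcnmb2, a subunit that inactivates the BK channel, had 251.5 and 356.1 (1.42-fold higher, log2 0.50), and on its second measured probe set 175.3 and 190.5 (log2 0.12). Kcnmb4, the neuronal BK subunit, had 77.5 and 86.4, and Kcnmb1, that of smooth muscle, was above the floor in the knockout only (33.0 and 44.0). Kcne4 (73.1 and 76.2) and Kcnab1 (52.0 and 50.9) were level. Kcne3, a single-span partner of Kcnq1, was above the floor in the wild type only (59.1 and 24.9, at least 1.48-fold lower). Kcnip2 and Kcnip3 were above it in the knockout only, at 43.0 and 46.7 there.

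**Figure D4:**
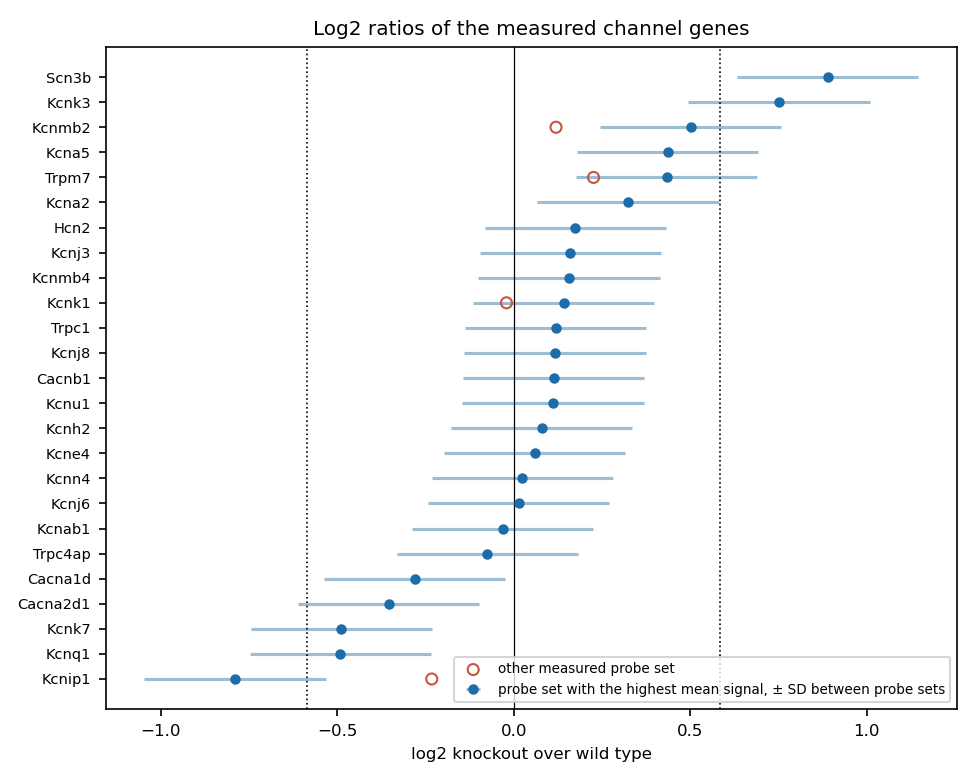
Log2 ratio of knockout over wild type (horizontal axis) for the 25 measured channel genes, sorted. Filled points are the probe set with the highest mean signal, with bars of ± 0.26, the SD between probe sets of a gene over all genes, and open circles are other measured probe sets, which 4 of the genes have. Dotted lines mark 1.5-fold.

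Of the 109 genes, 37 have several probe sets, and 4 had more than 1 above the floor on both arrays. These 4 are Kcnip1, Kcnk1, Kcnmb2 and Trpm7, and for 3 of them both probe sets had the same direction. In each of the 4 the second probe set gave the smaller difference. The 250 bases before the most upstream start listed for these genes are shown, since theirs are the signals that rest on more than 1 probe set. They come from RefSeq (GRCm38.p6) and read along the gene's strand, 5′ to 3′. Capitals mark a match to a searched motif. Kcnip1 has 3 listed starts and lies at chr11:33993194-33993443 on the minus strand, Kcnk1 at chr8:125994852-125995101 on the plus strand, Kcnmb2 at chr3:31902453-31902702 on the plus strand and Trpm7 at chr2:126876262-126876511 on the minus strand.
Kcnip1: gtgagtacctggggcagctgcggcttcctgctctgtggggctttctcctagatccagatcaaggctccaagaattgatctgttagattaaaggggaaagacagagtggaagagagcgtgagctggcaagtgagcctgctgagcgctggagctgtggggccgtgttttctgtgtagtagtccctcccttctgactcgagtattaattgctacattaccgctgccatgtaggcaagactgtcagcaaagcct
Kcnk1: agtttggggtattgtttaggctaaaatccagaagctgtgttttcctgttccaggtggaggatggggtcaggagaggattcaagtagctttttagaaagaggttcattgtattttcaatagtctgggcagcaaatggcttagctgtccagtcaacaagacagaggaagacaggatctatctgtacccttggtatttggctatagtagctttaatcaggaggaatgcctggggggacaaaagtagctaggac
Kcnmb2: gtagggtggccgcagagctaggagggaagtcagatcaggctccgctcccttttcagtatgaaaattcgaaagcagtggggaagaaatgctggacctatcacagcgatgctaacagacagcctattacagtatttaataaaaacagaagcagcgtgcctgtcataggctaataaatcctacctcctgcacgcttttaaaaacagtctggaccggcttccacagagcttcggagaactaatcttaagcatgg
Trpm7: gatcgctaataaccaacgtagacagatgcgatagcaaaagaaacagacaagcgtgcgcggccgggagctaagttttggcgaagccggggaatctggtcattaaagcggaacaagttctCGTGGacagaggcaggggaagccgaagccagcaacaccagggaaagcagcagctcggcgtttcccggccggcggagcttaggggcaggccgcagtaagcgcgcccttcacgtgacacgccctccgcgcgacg

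Promoters of 90 of the 109 genes were in the RefSeq table. Those of Scn3b, Kcnk3, Kcnh3 and Kcnq1 were among the missing ones, so their upstream bases were not searched. Motifs of stress-dependent and neuronal transcription were looked for on both strands of the 250 bases. The ER stress element core CCACG was found in 33 of the 90 (36.7%) and in 38.2% of the 9887 gene promoters searched, once in Trpm7 and in none of the other sequences shown. The cyclic AMP response core TGACGT was found in 4.44%, against 9.06%, the composite element TGATGNAA of C/EBP and ATF factors in 2.22%, against 2.39%, and the stretch TCAGCACC of the neuronal silencer element in 0 of 90, against 1.41%. CCACG, which reads CGTGG on the other strand, can overlap TGACGT, and a match is not a binding site. The upstream bases of channel genes were poor in CpG. An observed over expected CpG ratio above 0.6 was found in 31.4% of the 35 promoters of channel genes above the floor on at least 1 array and in 32.7% of 55 promoters of those at the floor. Over all genes these shares were 67.7% and 30.1%. Taking the highest ratio over all listed starts of a gene gave 37.1% for channel genes above the floor and 71.6% for all genes above it.

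Calcium channels couple depolarisation to insulin release. Of 9 pore genes, 1 was measured. Cacna1d, an L-type pore of beta cells and endocrine cells, had 187.1 in the wild type against 154.0 in the knockout (1.21-fold lower, log2 -0.28), about as much as the SD between probe sets. Its other probe set was at the floor (35.6 and 38.0). The measured probe set has a name ending in _s_at, and with such probe sets left out Cacna1d was at the floor. The L-type pore Cacna1c (37.1 and 38.9) and the P/Q-type pore Cacna1a (32.5 and 39.4) were just under the floor. Cacna1h (23.2 and 31.3), Cacna1g (4.7 and 9.5), Cacna1e (4.5 and 4.9) and Cacna1b (3.1 and 2.4) were at the floor as well. Cacna1f, known from retina, was above it in the wild type only (50.8 and 30.1, at least 1.28-fold lower).

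Of 14 auxiliary calcium channel genes, 2 were measured. Cacna2d1, the subunit that brings pores to the surface, had 53.7 and 42.0 (log2 -0.35), with the knockout signal just above the floor. Cacnb1, an intracellular subunit, had 53.7 and 58.1 (log2 0.11). Cacng5 (30.0 and 52.7) and Cacna2d2 (6.0 and 40.8) were above the floor in the knockout only, and for Cacna2d2 the bound was only 1.03-fold. Cacnb2 (2.0 and 0.8), Cacnb4 (13.2 and 14.4) and Cacng4 (8.1 and 38.4) were at the floor.

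Among 9 sodium channel genes, Scn3b alone was measured. Scn3b, an auxiliary subunit of voltage-gated sodium channels, had the largest log2 ratio of the channel genes, at 59.6 in the wild type against 110.4 in the knockout (1.85-fold higher, log2 0.89). Its other probe set was at the floor. The pore Scn8a was above the floor in the knockout only (31.0 and 45.9, at least 1.15-fold higher). The pores Scn3a (10.7 and 9.8), Scn9a (18.3 and 18.6) and Scn2a (6.6 and 7.7) were at the floor on both arrays. Genes listed as Schwann and neuronal markers had a summed signal of 1722 and 1973 over 13 genes. Of their 11 measured genes, 7 were above equality and 4 below, with a median of 0.37. The 2 with the highest mean signal went opposite ways, Snap25 at 396.0 and 447.4 and Th at 279.0 and 232.4. Nefl (97.4 and 150.5) was 1.5-fold apart, Sox10 (114.1 and 111.0) was level, and S100b and Gfap were at the floor. The part of Schwann cells and neurons in the Scn3b and Kcnk3 differences was not tested.

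Hcn2, a pacemaker channel opened by hyperpolarisation, had 62.2 and 70.2 (log2 0.17), and Hcn3 was at the floor (8.2 and 37.2). Of 13 TRP channel genes, 2 were measured. Trpm7, a magnesium-permeable channel fused to a kinase, had 69 and 93.2 (1.35-fold higher, log2 0.43), and 41.8 and 48.9 on a second probe set (log2 0.23). Trpc1, a non-selective cation channel, had 60.7 and 65.9 (log2 0.12). Trpc4 (14.9 and 17.0), Trpv2 (5.8 and 23.8) and Trpv4 (9.0 and 2.8) were at the floor. The adaptor gene Trpc4ap had 271.4 and 257.7 (log2 -0.07).

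Of 56 channel genes listed for their known part in beta cell excitability, 39 had a named probe set and the other 17 were not analysed here. Of the 39, 14 were measured, 5 were above the floor in the knockout only and 20 were at the floor. The 14 had a median log2 ratio of 0.10, with Kcnk3 as the 1 gene at least 1.5-fold higher and Kcnip1 as the 1 gene at least 1.5-fold lower. Lists of the proteins that act with these channels were measured more fully. Of 17 ion pumps and exchangers, 16 were measured, with a median of 0.04, 8 on either side of equality, and 1 at least 1.5-fold apart. Atp2a3, a calcium pump of the ER, had 802.4 and 418.4 (1.92-fold lower), whereas its second probe set had 86.5 and 93.0 (log2 0.10). Atp2a2, the other main ER calcium pump, had 2287 and 1540 (1.48-fold lower) and was lower on its other measured probe sets too, with log2 ratios of -0.33, -0.44 and -0.65. The sodium pump subunit Atp1b1 had 923.3 and 851.1.

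Of 14 intracellular and store-operated calcium channels, 10 were measured with none 1.5-fold apart and a median of -0.00. The inositol trisphosphate receptor Itpr3 had 267.3 and 264.4, and the lysosomal channel Mcoln1 had 178.7 and 179.7. Of 21 calcium sensors and calmodulin-dependent enzymes, 15 were measured with a median of 0.09. Calb1, the calcium buffer calbindin, was 1.60-fold higher (201.9 and 323.4), while Hpcal1 (499.5 and 598.7) and Ppp3r1 (490.8 and 522.2) were within 1.2-fold. Of 25 chloride and other channels and regulators, 18 were measured with a median of 0.03. Gjd2, the gap junction protein that couples beta cells, was 1.61-fold lower (175.9 and 109.5). Abcc8, the sulfonylurea receptor of the ATP-sensitive channel, had 922.4 and 776.9 (log2 -0.25), and Clic1 had 905.3 and 1020 (log2 0.17).

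**Figure D5:**
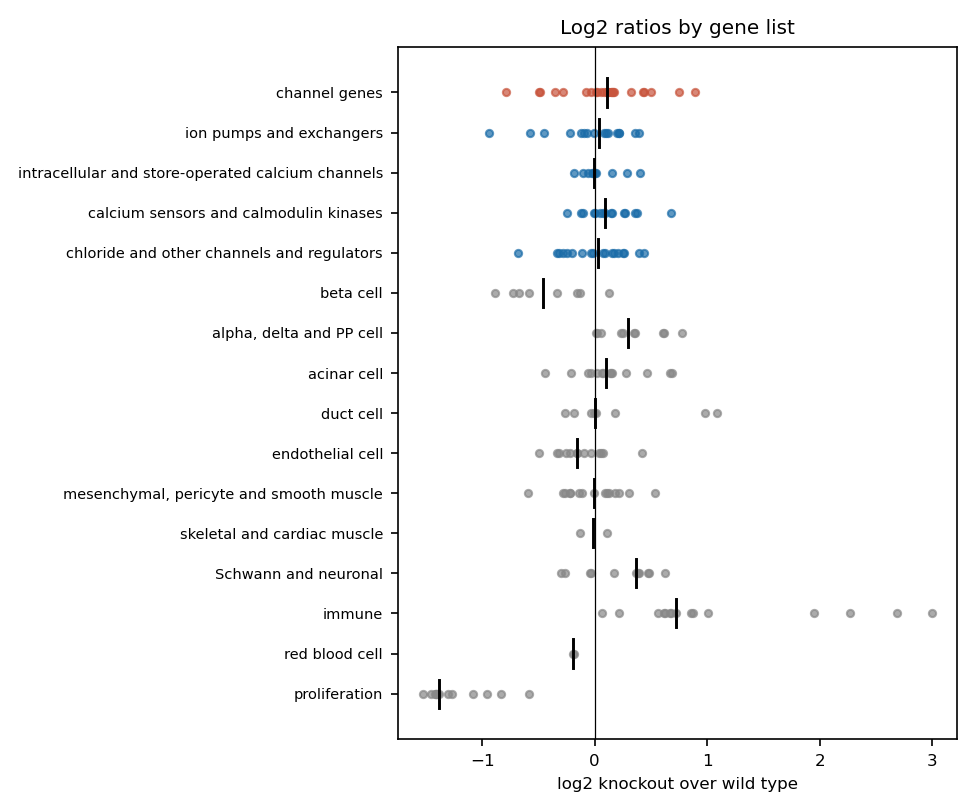
Log2 ratios of knockout over wild type (horizontal axis) of the measured channel genes (red), of 4 lists of proteins that act with them (blue) and of cell type markers (grey). Each point is a gene and the vertical black line is the median of the list. The channel genes have a median of 0.11, immune markers of 0.72 and proliferation markers of -1.39.

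Marker lists described the cell types of both preparations. Immune markers had a summed signal of 1899 (wild type) and 4587 (knockout) over 21 genes. All 15 measured ones were above equality and 12 were at least 1.5-fold higher, S100a8 by the most (98.9 and 788.8), and Itgam and Cd3e were at the floor. Proliferation markers summed to 4053 and 1646, with 13 of 13 at least 1.5-fold lower. Alpha, delta and PP cell markers summed to 37152 and 42106, with 10 of 10 above equality and 3 at least 1.5-fold higher. The hormones Gcg (5661.5 and 5718.1) and Sst (5644.6 and 5867.9) were nearly level. In the wild type, Ins2 (5652.3) and Pyy (5654) read almost the same as Gcg and Sst. Whether such bright signals lay near an upper limit of the array was not tested. A limit of that kind would make ratios smaller, also in sums that bright genes dominate. Acinar markers summed to 42929 and 45555, with Ctrl (345.9 and 557.7) and Zg16 (668.4 and 1064) at least 1.5-fold higher. Of the 14 measured acinar markers, 10 were above equality and 4 below, with a median log2 ratio of 0.10. Duct markers summed to 4978 and 5372, with Tspan8 2.13-fold higher (166.8 and 354.7, and higher on its other measured probe sets) and Car2 1.97-fold higher (74.5 and 147.1). Of the 8 measured duct markers, 4 were above equality and 4 below, with a median log2 ratio of 0.0035. Mesenchymal markers summed to 11852 and 10913, with Acta2 lower (1507 and 997.4, log2 -0.60). Endothelial markers summed to 5033 and 4639 and red blood cell markers to 430.8 and 439.8, with no measured gene 1.5-fold apart, and 10 of 14 skeletal and cardiac muscle markers were at the floor. Their part in the channel values was not tested.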

How the data were processed

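For each of 2 arrays the authors deposited linear intensities of probe sets, made with GCOS 1.02 per the submitters' processing notes. How background was corrected and probes were summarised is not stated there, and no detection calls were used. Of 22690 probe sets, 20380 had 1 gene symbol in the platform annotation, 691 had several, 1555 were unnamed here and 64 were controls. The 2% trimmed means were 150.1 on both arrays (factor 1.00). All 109 symbols matched the RefSeq table of GRCm38.p6. Probe sets with several symbols included a channel in 2 cases, neither above the floor on both arrays.

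Computation used Python 3.11.15, pandas 2.3.3, numpy 2.4.6 and scipy 1.17.1, and was tested on simulated data. With 1 array a genotype no test was possible. The genes, lists, fold limits, motifs and named-gene rule were chosen with earlier results of these data known, although the symbol rule itself uses no signal. Named genes are those at least 1.5-fold apart, the 12 with the highest mean signal, the 2 highest measured of each family and the beta cell list. Other genes were named after their values were seen. Partner and marker lists name genes 1.5-fold apart (in some marker groups as counts) and from the 2 highest. Rgs5, Abcc9, Sox10, S100b, Gfap, Itgam, Cd3e, Gcg, Sst and Pyy were picked after their values were seen. Other scalings, floors, a pseudocount and probe set choices were tried. The number of arrays limits all precision.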

Additional observations from a re-analysis of the deposited data

How the results depend on the processing

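Scaling did not change which channel genes were 1.5-fold apart: Kcnk3 and Scn3b were higher and Kcnip1 lower with the signals as deposited, median centring, quantile normalisation, a pseudocount of 16, or without _x_at and _s_at probe sets. The median log2 ratio of the measured channel genes lay between 0.04 and 0.12 over the 9 alternatives. The floor decided the counts. With it at the 25th percentile 55 genes were measured, 7 were at least 1.5-fold higher, 5 at least 1.5-fold lower and 1 at least 2-fold lower. With it at the 60th percentile 8 were measured and 0 were 1.5-fold higher, since Kcnk3 and Scn3b then had no wild-type signal above it. Over the median of a gene's measured probe sets 0 were 1.5-fold lower, Kcnip1 being at -0.51. Of 150 values of single genes under an alternative, 149 moved by less than 0.26, the SD between probe sets, and none that was 1.5-fold apart changed direction. Many of these values could hardly move. Another floor, the signals as deposited, or leaving out probe sets or symbols left the ratios of the remaining genes as they were. Genes that fell to the floor under a setting are not among the 150. The count is therefore no measure of robustness. Signals near the floor limit what can be compared for most channel genes.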
